A study of Mus musculus with 15 samples.

Results

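The expression of 10 heat shock protein genes was followed in whole mouse testes. The genes were taken by symbol from the 36118 rows of the normalised count table, and each of the 10 symbols matched 1 Ensembl gene. They are the HSP70 genes of germ cells Hspa2 and Hspa1l, the stress-inducible HSP70 genes Hspa1a and Hspa1b, the HSP110 genes Hspa4l and Hsph1, the J-domain gene Dnajb1, the HSP90 gene Hsp90aa1, the small heat shock protein gene Hspb1 and the mitochondrial chaperonin gene Hspd1. All 10 had a mean normalised count of at least 10 and so were among the 17896 genes tested. RNA was sequenced from C57/BL6 testes with 3 libraries each for a group labelled Control and for the treatments TSA, AA, HMS-I1 and MTX, in a study of histone modifications and chromosomes in meiotic prophase. The labels do not expand the treatment names, and dose, duration and age are not given in the sources used here. By title the HMS-I1 libraries are replicates 1 to 3 of HMS-I1, whereas their treatment field names them HMS-I1, HMS-I2 and HMS-I3 in turn, so each n of 3 for HMS-I1 rests on the titles. The replicates are not said to be separate animals, so the spread behind each p-value is that among the sequenced samples, possibly technical. The model also draws on the spread of other genes in the same samples.

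Proteins of the HSP70 family bind exposed stretches of unfolded proteins in a cycle driven by ATP. J-domain proteins such as Dnajb1 start the cycle, HSP110 proteins such as Hsph1 and Hspa4l exchange the spent nucleotide, HSP90 takes over part-folded clients, small heat shock proteins hold unfolded ones, and Hspd1 forms a folding chamber inside mitochondria. Heat and other protein-damaging stress raise many of these genes through heat shock factor 1, which binds inverted repeats of the unit GAA called heat shock elements. Male germ cells also make chaperones as part of their normal programme. Hspa2 is made in meiotic spermatocytes and is needed to take the synaptonemal complex apart, Hspa1l is made in spermatids, and Hspa4l is abundant in germ cells.

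RefSeq promoter sequences (build GRCm38.p6, not the build of the counts) were found for 9 of the 10 genes, and the 250 bases before each start site were searched. The 2 motifs were GAANNTTC and TTCNNGAA, the head-to-head and tail-to-tail pairs of the heat shock element unit. Each motif is its own reverse complement, so that a match stands on both strands, and matches of both may overlap. Shown first are the stretches before Hspa1a and Hspa1b, neighbouring inducible genes with nearly the same sequence before their start sites, then those of Hspb1 with 2 matches and of Hspa1l with none. Capitals mark the matches, and each sequence runs 5′ to 3′ on the strand of its gene.
Hspa1a (chr17:34972157-34972406, minus strand): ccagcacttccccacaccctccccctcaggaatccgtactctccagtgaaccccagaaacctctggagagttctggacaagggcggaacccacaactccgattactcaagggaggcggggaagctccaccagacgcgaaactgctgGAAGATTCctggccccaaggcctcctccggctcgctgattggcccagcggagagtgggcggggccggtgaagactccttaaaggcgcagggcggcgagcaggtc
Hspa1b (chr17:34959239-34959488, minus strand): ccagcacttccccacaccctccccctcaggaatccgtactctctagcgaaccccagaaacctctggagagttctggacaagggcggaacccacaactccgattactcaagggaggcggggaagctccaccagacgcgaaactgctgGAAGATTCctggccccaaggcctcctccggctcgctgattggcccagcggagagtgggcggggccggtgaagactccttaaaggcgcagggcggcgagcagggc
Hspb1 (chr5:135887669-135887918, plus strand): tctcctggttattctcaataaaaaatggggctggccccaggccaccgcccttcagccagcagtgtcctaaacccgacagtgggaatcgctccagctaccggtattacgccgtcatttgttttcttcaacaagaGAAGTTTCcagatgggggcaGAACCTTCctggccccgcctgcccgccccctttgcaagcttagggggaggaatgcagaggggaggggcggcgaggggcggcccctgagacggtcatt
Hspa1l (chr17:34972453-34972702, plus strand): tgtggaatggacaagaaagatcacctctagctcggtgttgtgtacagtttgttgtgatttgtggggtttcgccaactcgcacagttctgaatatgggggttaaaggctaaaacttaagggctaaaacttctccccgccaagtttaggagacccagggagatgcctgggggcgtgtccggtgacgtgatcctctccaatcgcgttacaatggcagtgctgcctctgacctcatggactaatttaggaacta
The next 2 lines give the 30 bases around the matches before Hsph1 and Hspd1, whose windows overlap annotated exons.
Hsph1 (chr5:149636351-149636380, minus strand): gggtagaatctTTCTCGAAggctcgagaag
Hspd1 (chr1:55088053-55088082, minus strand): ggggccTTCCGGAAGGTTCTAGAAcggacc

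The 9 genes had 12 windows, with 2 each for Dnajb1, Hsph1 and Hspd1. At least 1 match stood in the windows of 5 of the 9 genes, namely Hspa1a, Hspa1b, Hspb1, Hsph1 and Hspd1. The same site of Hsph1 stood in both of its windows, and Hspd1 had matches in 1 of its windows only. Hspa2, Hspa1l, Hspa4l and Dnajb1 had none in these windows. Over all 32851 promoter windows of the same length, 12.8% held either motif, 6.69% held GAANNTTC and 7.17% held TTCNNGAA. These shares are per window, whereas the count of 5 is per gene. The match of Hspa1a and of Hspa1b ran from -104 to -97 relative to the start site in both genes, and the 2 windows were identical at 247 of 250 positions (98.8%). The 2 matches of Hspb1 lay between -117 and -90. In Hspd1 3 overlapping matches ran from -144 to -127, an overlap of both motifs that 0.466% of all windows held. Hspa1a and Hspa1l stood head to head, with 546 bases between their start sites. A match is only a run of letters, and these data hold no measurement of binding.

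The 15 libraries fell into 2 sets that cut across the groups. For each of the 10 genes the fold change with the smallest p is also given within each set. The histone-high set holds 6 libraries, replicate 1 of all 5 groups and Control replicate 2. These had a mean log2 value of 7.79 to 8.82 over 60 canonical histone genes, against 2.95 to 3.86 in the 9 histone-low libraries. Mitochondrially encoded genes took 1.08 to 1.40% of the signal in histone-high and 3.54 to 13.7% in histone-low libraries. Low values came in steps of what 1 read is worth, from which 1.16e+07 to 1.55e+07 reads were estimated for each histone-high library and 3.10e+07 to 6.89e+07 for each histone-low one. The labels name no batch. Control is mostly histone-high and each treatment mostly histone-low, so any comparison that pools the sets mixes treatment with library set. The sets were defined from the data, but within each set the comparison of a treatment with Control keeps 1 treated library against 2 controls, or 2 against 1. Among cell type markers, those of spermatogonia, spermatocytes, spermatids, Sertoli, Leydig, myoid, endothelial and immune cells were detected, as the tissue label has it. Adipocyte and erythroid markers were detected as well. The adipocyte sum was 6177 in Control replicate 1 and at most 2042.5 in any other library. Only Lcn5 and Lcn8 of the epididymis were at 0 throughout.

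Normalised counts were divided by the length of the longest coding transcript to compare levels between genes. On this scale the order of the means was Hsp90aa1 (35461 ± 9140 per kb, SD over 15 libraries), Hspa2 (12916 ± 2543), Hspa1l (6148 ± 1060), Hspa4l (4499 ± 1028), Dnajb1 (2883 ± 666), Hspd1 (1323 ± 493), Hsph1 (471 ± 127), Hspb1 (400.1 ± 155), Hspa1b (35.2 ± 16.7) and Hspa1a (33.7 ± 7.83). The ranges of Hsp90aa1 (19767 to 60430.4 per kb) and Hspa2 (9029 to 18240.0 per kb) did not overlap. Hspa1l and Hspa4l overlapped in range, as did Hspb1 and Hsph1, and Hspa1a and Hspa1b did not differ beyond their spread. The range of Dnajb1 (1855 to 4198 per kb) overlapped those of Hspa1l, Hspa4l and Hspd1. By unscaled mean, Hsp90aa1 ranked 11, Hspa4l 36 and Hspa2 62 among all genes. Hspa4l ranks lower per kb than by count because its longest coding transcript is 9479 bases. The gene has 8 annotated transcripts, and which of them gave the reads is not known here. Its place in the order per kb therefore depends on the transcript chosen.

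**Figure D1:**
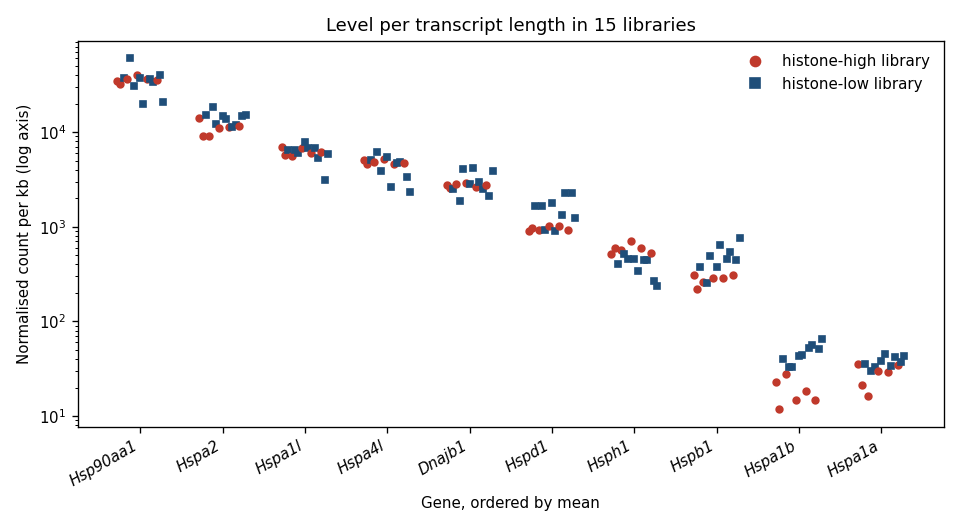
Normalised count per kb of the longest coding transcript (log axis) for the 10 genes, 1 point per library in the order Control, MTX, HMS-I1, AA, TSA; circles are histone-high and squares histone-low libraries. Hsp90aa1 and Hspa2 lead, and Hspa1a and Hspa1b lie lowest, at means of 33.7 and 35.2 per kb.

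Among the cytosolic HSP70 genes Hspa2, Hspa1l, Hspa8, Hspa1a and Hspa1b, the germ cell form Hspa2 held 45.3 to 59.9% of the summed level per kb (median 50.7%). Hspa1l held 11.5 to 30.9% (median 26.3%), and Hspa8, the constitutive form of all cells, 16.5 to 33.7% (median 23.0%). Hspa1a took 0.0842 to 0.168% and Hspa1b 0.0629 to 0.220%. Per kb, Hspa2 stood 118 to 288 times above the sum of Hspa1a and Hspa1b, in every group including Control. HSP70 transcripts in these libraries were thus mainly of the germ cell and constitutive forms.

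None of the 10 genes passed the test in any comparison with Control. With an adjusted p threshold of 0.05 (limma, Benjamini-Hochberg over 17896 genes), the share of all genes called was 0.0% for each of the 4 treatments and 0.0% in an F-test across the 5 groups. At an unadjusted p under 0.05 there were 98 genes for MTX (0.548% of all), 73 for HMS-I1 (0.408%), 143 for AA (0.799%), 1027 for TSA (5.74%) and 230 for the F-test (1.29%), and 0 of the 10 in each. Adjusted p-values of the 10 genes were 1 in MTX, HMS-I1 and AA and 0.886 to 0.930 in TSA. For TSA the count over all genes changed when 1 library was left out. Leaving out TSA replicate 1 let 992 genes pass, and still 0 of the 10. That replicate was the only histone-high TSA library, whereas Control replicates 1 and 2 are histone-high, so this refit mixes treatment with library set. With all 15 libraries and the library set as a term, 0 genes passed in TSA. Whole testis is a mixture, so fewer cells of a type and less RNA per cell cannot be told apart in any of these values.

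Fold changes of the 10 genes were spread around 0. In MTX they ran from -0.23 to 0.49 on the log2 scale with a median of 0.04 (6 higher, 4 lower), where the median of all genes was -0.01. In HMS-I1 the range was -0.22 to 0.47 and the median 0.11 (7 higher, 3 lower), against -0.02 over all genes. In AA it was -0.12 to 0.77 with a median of 0.04 (6 higher, 4 lower), against -0.02. The widest range was that of TSA, -0.63 to 0.72, with a median of 0.14 (6 higher, 4 lower) against 0.01. The 4 comparisons share the Control libraries, so these medians are not independent of each other. They also pool the library sets, which Control and the treatments hold in different shares.

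Dnajb1 in HMS-I1 was the only case in which all 3 treated values lay on 1 side of all 3 control values. It was higher, 1 of 10 genes, where 1.35% of all genes were higher and 1.35% lower without overlap in HMS-I1. None of the 10 genes met this in MTX (1.32% of all genes above and 1.15% below Control), in AA (2.81% above and 2.23% below) or in TSA (2.36% above and 2.18% below).

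**Figure D2:**
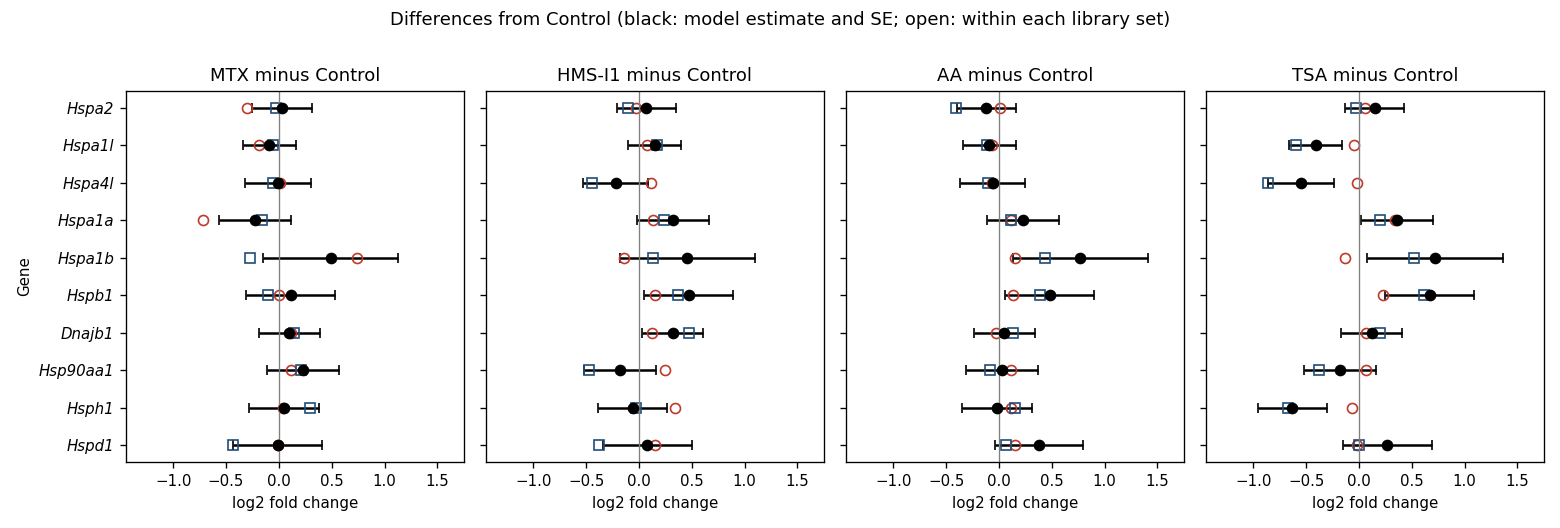
log2 fold change of each gene in MTX, HMS-I1, AA and TSA against Control: black points and bars are the limma estimate and its SE, open circles the difference within the histone-high libraries and open squares within the histone-low ones. Estimates run from -0.63 (Hsph1 in TSA) to 0.77 (Hspa1b in AA), and none passed the threshold.

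Of the germ cell HSP70 genes, Hspa2 had normalised counts of 35251, 22807 and 38674 in Control, 22993, 46074 and 31079 in MTX, 27693, 37677 and 34708 in HMS-I1, 28605, 28739.9 and 29672 in AA, and 29477, 37434 and 38511 in TSA (replicates 1, 2 and 3 in each group). The lowest value was in Control replicate 2 and the highest in MTX replicate 2, and all groups overlapped. The smallest p of Hspa2 was in TSA, where the log2 fold change was 0.15 with an SE of 0.28 (limma, adjusted p = 0.911). Within the histone-high libraries that difference was 0.06 and within the histone-low libraries -0.03. It was -0.08 without Control replicate 2, so that its sign rests on 1 library.

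Hspa1l, the spermatid form encoded beside Hspa1a, had 17304, 14326 and 16097 in Control, 13764, 15836 and 15036 in MTX, 16689.7, 19611 and 16763 in HMS-I1, 15032, 16759.7 and 13243 in AA, and 15209, 7658 and 14632 in TSA. TSA replicate 2 was the lowest of all 15 libraries, the next being 13243 in AA replicate 3, and the remaining TSA values lay among those of Control. The fold change in TSA was -0.41 on the log2 scale (SE 0.25, limma, adjusted p = 0.886). It was -0.05 within the histone-high libraries and -0.60 within the histone-low libraries, and -0.09 without TSA replicate 2, so that its size rests on that library. An exon of Gm10501 overlaps Hspa1l on the opposite strand, and no source used here says whether reads were counted by strand.

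The HSP110 gene Hspa4l had 47886, 43388 and 48474 in Control, 45835, 58496 and 37110.3 in MTX, 49233, 51241 and 25074 in HMS-I1, 43388, 44674 and 45565 in AA, and 45101, 31978 and 22274 in TSA. TSA replicate 3 and HMS-I1 replicate 3 were the lowest, then TSA replicate 2, while TSA replicate 1 lay among the controls. In TSA the log2 fold change was -0.55 (SE 0.31, limma, adjusted p = 0.886), -0.02 within the histone-high libraries and -0.86 within the histone-low libraries. It was -0.29 without TSA replicate 3. Of the treated values in AA, all 3 lay between 43388 and 45565, inside the range of Control.

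Hsph1, the other HSP110 gene and a heat-inducible one, had 1936, 2290.3 and 1521 in Control, 2161, 1980.0 and 1742 in MTX, 2668, 1719 and 1293 in HMS-I1, 2277, 1698 and 1677 in AA, and 2006, 1008 and 904 in TSA. TSA replicates 3 and 2 were the lowest of the 15 libraries, followed by HMS-I1 replicate 3, and TSA replicate 1 was within the range of Control. The log2 fold change of Hsph1 in TSA, -0.63 (SE 0.33, unadjusted p = 0.0782, limma, adjusted p = 0.886), had the smallest p of the 10 genes over the 4 comparisons. It was -0.07 within the histone-high libraries and -0.67 within the histone-low libraries, and -0.41 without TSA replicate 3.

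Without TSA replicate 1 these fold changes were larger, -0.58 for Hspa1l, -0.80 for Hspa4l and -0.98 for Hsph1, and those of Hspb1 and Hspa1b, which lay the other way, were 0.97 and 1.36. None of the 5 passed, and Hsph1 came nearest to the threshold (limma, adjusted p = 0.0888). In that refit 18.0% of all genes had an unadjusted p under 0.05, as did these 5 of the 10. TSA replicate 1 was the only histone-high TSA library, whereas Control replicates 1 and 2 are histone-high. The refit therefore mixes treatment with library set. Within the histone-low libraries the TSA differences were 0.52 for Hspa1b and 0.62 for Hspb1. They were -0.60 for Hspa1l, -0.86 for Hspa4l and -0.67 for Hsph1. All 7 round spermatid markers had a lower mean in TSA than in Control, and none was at 0. Their summed normalised count was 34157 in TSA replicate 1, 8348 in replicate 2 and 13541 in replicate 3, against 28532.5 to 37599 in Control. That sum was lowest in TSA replicate 2, whereas Hspa4l and Hsph1 were lowest in TSA replicate 3. Hspa1l was 14632 in TSA replicate 3, within the range of Control. In HMS-I1 replicate 3, where Hspa4l was also low, the round spermatid sum was 26513. It was 27210 in AA replicate 3, where Hspa4l was 45565, within the range of Control. Of the 9 pachytene and late spermatocyte markers 7 were lower in TSA, with sums of 159572 to 233918.5 against 216875 to 233893 in Control. In AA 8 of the 9 were lower, with sums of 156679 to 224754. The log2 fold changes of Hspa4l and Hsph1 in AA were -0.06 and -0.02. The part of these cell types in the values of Hspa1l, Hspa4l and Hsph1 was not tested.

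The stress-inducible HSP70 gene Hspa1a had 105, 62.5 and 104 in Control, 48.8, 89.6 and 97.1 in MTX, 88.6, 112 and 135 in HMS-I1, 87.2, 101 and 126 in AA, and 103, 111 and 129 in TSA. MTX replicate 1 and Control replicate 2 were the lowest and HMS-I1 replicate 3 the highest, with overlap between all treatments and Control. The fold change with the smallest p was that in TSA, 0.36 on the log2 scale (SE 0.34, limma, adjusted p = 0.886), and it was 0.34 within the histone-high and 0.20 within the histone-low libraries. Without Control replicate 2 it was 0.12. By the estimated worth of a read these counts stand for 19 to 53 reads in the histone-high libraries and 110 to 299 in the histone-low ones.

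Hspa1b, its neighbour with nearly the same coding sequence, had 63.6, 33.3 and 112 in Control, 77.4, 92.7 and 92.7 in MTX, 41.6, 121 and 123 in HMS-I1, 51.2, 146 and 159 in AA, and 41.9, 142 and 181 in TSA. The lowest value in every group belonged to a histone-high library. In AA the log2 fold change of Hspa1b was 0.77 (SE 0.64, limma, adjusted p = 1), 0.15 within the histone-high libraries and 0.44 within the histone-low libraries. It ran from 0.33 without Control replicate 2 to 1.28 without AA replicate 1, and was 1.19 without Control replicate 3 and 0.48 without AA replicate 3. AA replicate 1 is the only histone-high AA library and Control replicate 3 the only histone-low Control library. With the library set as a term the log2 fold change was 0.33. Each histone-high value stood for 16 to 32 reads, and each histone-low value for 151 to 305 reads.

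Of the 31-base stretches in the transcript of Hspa1a, 63.8% also occur in Hspa1b, and 67.6% of those of Hspa1b occur in Hspa1a, so the split of reads between them is uncertain. Their sum does not depend on that split, but 12.1% of the stretches of Hspa1a and 11.1% of those of Hspa1b also occur in the far more abundant Hspa1l, so that reads of Hspa1l could enter it. It was 160 ± 60.5 in Control (SD, n = 3), 166 ± 34.7 in MTX, 207 ± 68.0 in HMS-I1, 223 ± 76.1 in AA and 236 ± 84.4 in TSA. The differences of the mean log2 sum from Control were 0.11, 0.39, 0.49 and 0.56 in that order, and in each group the SDs overlapped those of Control. Over the 15 libraries the sum ran from 95.8 to 310.7, lowest in Control replicate 2 and highest in TSA replicate 3. It was at most 168 in the histone-high libraries and at least 182 in the histone-low ones, so these differences mix treatment with library set. Among histone-high libraries the treated sums, 126 to 144.5, lay between the Control values of 95.8 and 168. Among histone-low ones Control had 216, MTX 182 and 190, and the other treatments 233 to 310.7. Hspa1b made up 29.0 to 61.3% of the sum in the histone-high libraries, where MTX replicate 1 alone was above 37.8%, and 47.7 to 59.2% in the histone-low libraries. Gm20481, which overlaps Hspa1a on the opposite strand, had at most 5.17 normalised counts.

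Dnajb1, the J-domain partner of inducible HSP70, had 8190.3, 7698 and 7439.9 in Control, 8556, 5559 and 12152 in MTX, 8627, 8478 and 12576 in HMS-I1, 7784, 8901 and 7436 in AA, and 8359.7, 6319 and 11498 in TSA. The 3 highest values were replicate 3 of HMS-I1, MTX and TSA, and the 2 lowest were replicate 2 of MTX and TSA. In HMS-I1 all 3 values were above all 3 controls, the smallest gap being that of 8477.5 in HMS-I1 replicate 2 over 8190.3 in Control replicate 1. The log2 fold change was 0.32 (SE 0.29, limma, adjusted p = 1), 0.12 within the histone-high libraries and 0.47 within the histone-low libraries. Without HMS-I1 replicate 3 it was 0.14.

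Hsp90aa1, the inducible cytosolic HSP90 gene that testis expresses highly, had 115026, 105809.7 and 122479.7 in Control, 119015, 198272 and 101664 in MTX, 131447, 121172 and 64855 in HMS-I1, 119038, 119849 and 111811 in AA, and 115852, 131019 and 67912 in TSA. MTX replicate 2 was the highest and HMS-I1 replicate 3 and TSA replicate 3 the lowest, and 12 libraries lay between 101664 and 131447. The log2 fold change in MTX was 0.23 (SE 0.34, limma, adjusted p = 1) and -0.05 without MTX replicate 2, so its sign rests on that library. Within the histone-high libraries it was 0.11 and within the histone-low libraries 0.21. Of its 31-base stretches 51.4% occur in other genes, 46.7% in the pseudogene Gm12346.

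The small heat shock protein gene Hspb1 had 284, 207 and 351 in Control, 242, 235 and 455 in MTX, 269, 346 and 592 in HMS-I1, 266, 422 and 505 in AA, and 285, 412 and 708 in TSA. Replicate 3 was the highest of every group, led by TSA, and Control replicate 2 the lowest. The log2 fold change in TSA was 0.67 (SE 0.42, limma, adjusted p = 0.886), 0.23 within the histone-high libraries and 0.62 within the histone-low libraries. It was 0.32 without TSA replicate 3. In TSA 9 of 9 Sertoli markers had a higher mean than in Control (sums of 47051 to 81101, Control 42849 to 60993). So did 6 of 7 myoid markers (11645 to 16449, Control 11838 to 14966.5), and none of these markers was at 0. Spermatogonial (8 of 8), Leydig (7 of 7), erythroid (5 of 5), leukocyte (7 of 10) and endothelial (4 of 6) markers were higher too. Round spermatid (7 of 7), elongating spermatid (7 of 8), pachytene (7 of 9) and adipocyte (7 of 7) markers were lower. In AA 9 of 9 Sertoli and 6 of 7 myoid markers were higher as well. These group means also carry the library sets, as only 2 of 9 Sertoli and 1 of 7 myoid markers were higher in the histone-high set. In TSA replicate 2 the myoid sum was 11645, below all Control libraries, while Hspb1 was 412. The part of these cell types in the value of Hspb1 was not tested. Hsp25-ps1, a pseudogene that holds 52.3% of the 31-base stretches of Hspb1, had 4.19 to 37.8 normalised counts.

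Hspd1, the mitochondrial chaperonin gene, had 2179, 2331 and 4044 in Control, 2238, 3981 and 2254 in MTX, 2495, 4367 and 2206 in HMS-I1, 2492, 3256 and 5565 in AA, and 2215, 5456 and 3002 in TSA. AA replicate 3 and TSA replicate 2 were the highest, and the 6 histone-high libraries were within 2179 to 2495. Replicate 3 of HMS-I1 and of MTX, both histone-low, lay in that low range too. The log2 fold change in AA was 0.38 (SE 0.42, limma, adjusted p = 1), 0.15 within the histone-high libraries and 0.07 within the histone-low libraries. Its size changed with single libraries, being 0.06 without AA replicate 3, 0.21 without Control replicate 1, 0.64 without AA replicate 1 and 0.66 without Control replicate 3. AA replicate 1 is the only histone-high AA library and Control replicate 3 the only histone-low Control library. With the library set as a term the log2 fold change was 0.16. Other genes share 50.1% of its 31-base stretches, and an exon of its folding partner Hspe1 (635 to 2373 normalised counts) overlaps it on the opposite strand.

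**Figure D3:**
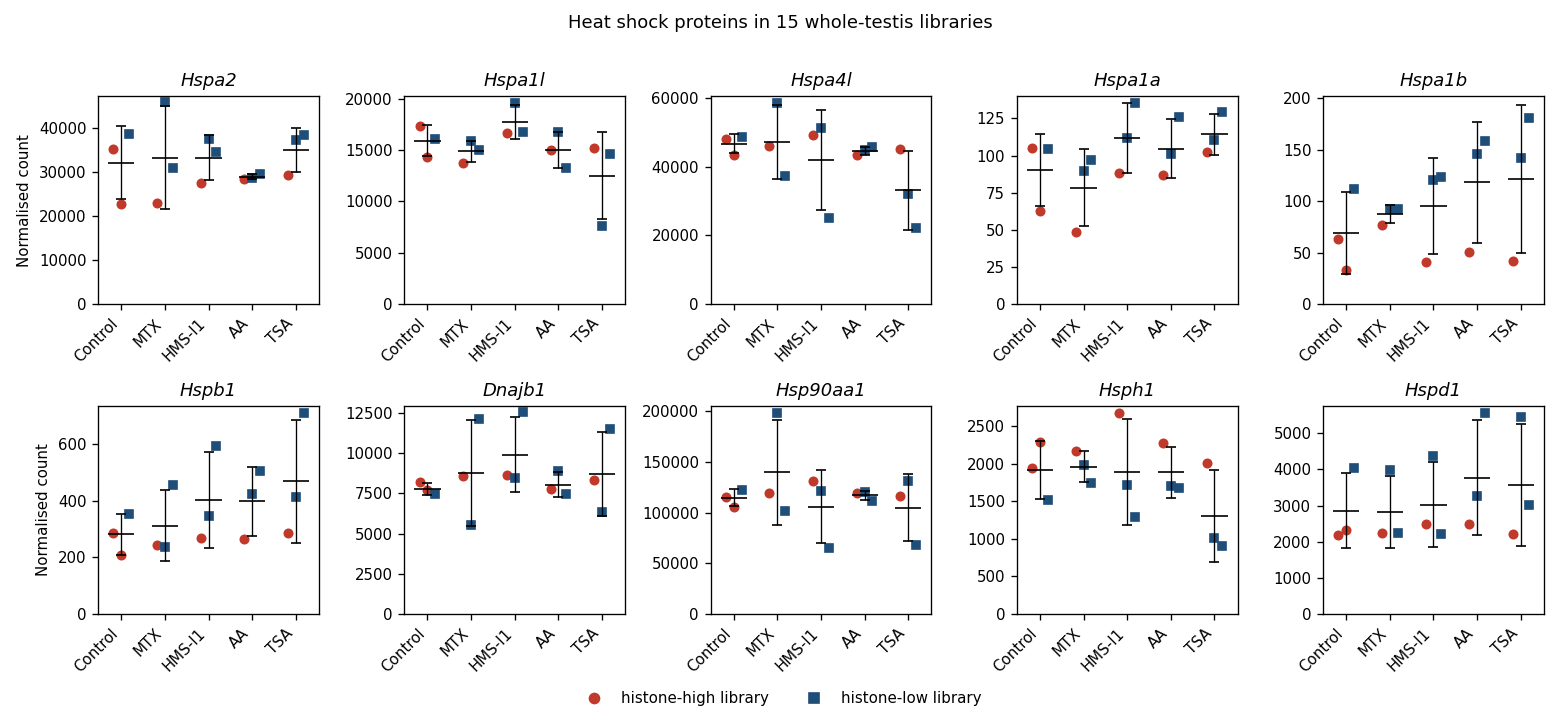
Normalised counts of the 10 genes in each library (axes from 0), by group; circles are histone-high libraries, squares histone-low ones, and the line and bar give the mean and SD of the 3 libraries. In Hspa1b every circle lies below every square, from 33.3 to 77.4 against 92.7 to 181.

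Between the library sets the widest difference among the 10 genes was that of Hspa1b, which was 33.3 to 77.4 in the 6 histone-high libraries and 92.7 to 181 in the 9 histone-low ones, 2.53-fold lower by the difference of mean log2 values. It was the only one of the 10 whose sets did not overlap, where 12.0% of all genes lay wholly below and 12.8% wholly above in the histone-high set. Hspb1 differed by -0.73, Hspd1 by -0.64, Hspa1a by -0.47 and Hspa2 by -0.37, and Hsph1 by 0.60 and Hspa4l by 0.24. Hsp90aa1 (0.10), Hspa1l (0.06) and Dnajb1 (-0.07) were nearly level between the sets. In all, 4 of the 10 were higher and 6 lower in the histone-high set, with a median of -0.22 against 0.00 over all genes.

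Other measures moved with the same sets. In the histone-high libraries 6 of 7 myoid markers were lower, with sums of 11549.9 to 12634 against 11645 to 16449, and all 6 endothelial markers, with 971.5 to 1238.5 against 1333 to 2118. So were 9 of 10 markers of macrophages and other leukocytes (4348 to 6642 against 6899 to 13613), while 6 of 8 elongating spermatid markers were higher (679001 to 968176 against 243595 to 502464). None of these markers was at 0 in every library. Depth, histone signal and mitochondrial share differ between the sets as well. Their part in the difference of Hspa1b, Hspb1 and Hspd1 was not tested, and the sets cannot be told apart from depth.

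**Figure D4:**
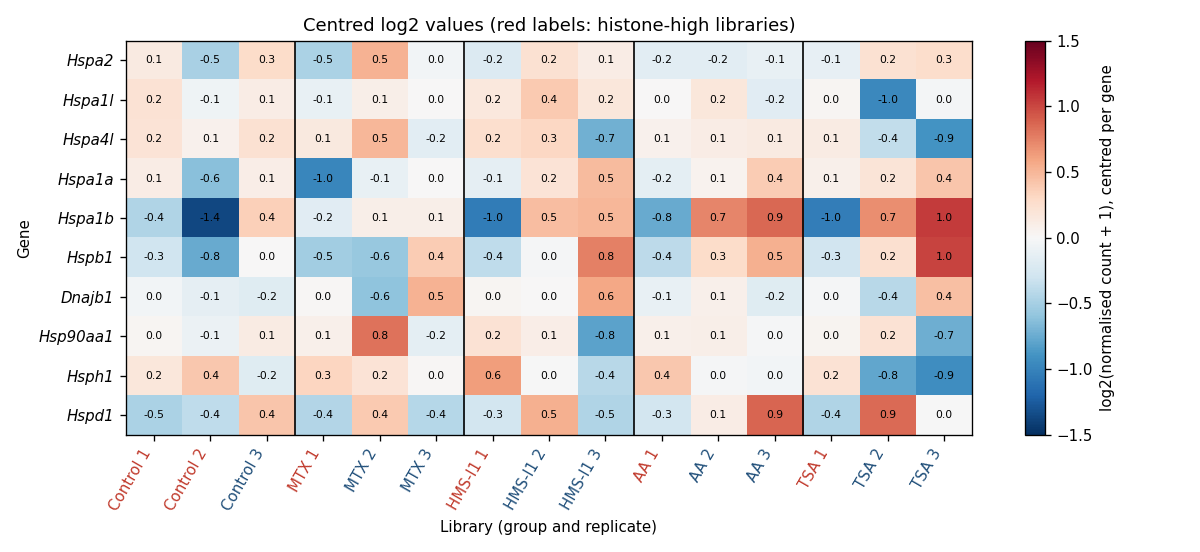
log2(normalised count + 1) of the 10 genes, centred on the mean of each gene, in the 15 libraries; red is above and blue below that mean, and red library names mark the histone-high set. Hspa1b is low in all 6 histone-high libraries, and Hspa4l and Hsp90aa1 are lowest in HMS-I1 replicate 3 and TSA replicate 3.

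Within the histone-low set the 10 genes did not move as one. HMS-I1 replicate 3 and TSA replicate 3 had low Hspa4l (25074 and 22274) and Hsp90aa1 (64855 and 67912) beside high Dnajb1 (12576 and 11498) and Hspb1 (592 and 708). MTX replicate 2 had the reverse, the highest Hspa4l (58496) and Hsp90aa1 (198272) with the lowest Dnajb1 (5559). The inducible genes Hspa1a, Hspa1b, Hspb1, Dnajb1 and Hsph1 therefore did not share 1 order of libraries. In TSA replicate 3, for example, Hspb1 and Hspa1b were the highest of 15 while Hsph1 was the lowest.

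The wider chaperone network was read from 7 lists with 80 genes besides the 10, of which 77 were tested. None was called in any of the 4 comparisons. At an unadjusted p under 0.05 there were 0 of the 77 in MTX, 0 in HMS-I1, 1 in AA and 3 in TSA. The share in TSA was 3.9%, below the 5.74% of all genes, and that in AA 1.3%, against 0.799%. J-domain proteins had the list median farthest from 0, -0.32 in TSA with 13 of 16 genes lower, where the median of all genes was 0.01, and in AA 13 of 16 were lower with a median of -0.14. Heat shock factors, the regulators of the inducible genes, had 4 of 6 higher in MTX and TSA, 5 of 6 in HMS-I1 and 1 of 6 in AA, with medians of 0.13, 0.08, 0.11 and -0.16. HSP90 with its co-chaperones had medians of -0.06 to 0.16 over the 4 comparisons, and chaperonins with prefoldins -0.06 to 0.16. Small heat shock proteins other than Hspb1 ranged from -0.16 to 0.02, HSP70 exchange factors and regulators from -0.04 to 0.04, and other HSP70 and HSP110 genes from 0.03 to 0.16.

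The J-domain genes with the smallest F-test p were Dnajc5b and Dnajb7, both testis genes. Dnajb7 had 7294, 9476 and 5515 in Control and 8189, 449 and 856 in TSA, a log2 fold change of -2.31 (SE 0.84, limma, adjusted p = 0.848). Dnajc5b had 7834, 9658 and 8148 in Control and 8285, 2996 and 2720.3 in TSA, a log2 fold change of -1.06 (SE 0.41, limma, adjusted p = 0.848). TSA replicate 1 lay among the controls in both genes and replicates 2 and 3 below them, as for Hsph1. Without TSA replicate 1 the values were -3.55 and -1.58, with adjusted p of 0.0049 and 0.0161 (limma), 2 of the 992 genes (5.54% of all) that passed then. That refit keeps no histone-high TSA library and so mixes treatment with library set. With all libraries and the library set as a term the values were -1.83 and -0.91, with adjusted p of 0.59 and 0.592 (limma). The round spermatid sums given above, 34157, 8348 and 13541 in TSA replicates 1 to 3, were low in replicates 2 and 3 as well. The part of that cell type was not tested. The other listed genes with the smallest F-test p were Hsf2 and Hsf2bp, Hspa12b and Hspa8, Fkbp5 and Sugt1, Bag5 and Bag3, Hspb8 and Hspb11, and Pfdn4 and Pfdn5, each with an adjusted p of 1.

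For 4 of the genes, the 3 most alike were sought among 13421 genes with a mean of at least 50, by the root mean square difference of centred log2 values over the 15 libraries. Nearest to Hspa2 were Senp2 (0.116), Stk10 (0.12) and Ctnnbl1 (0.123), where Hspa2 itself varied by 0.277 around its mean. Nearest to Hspa4l were Yme1l1 (0.097), Iqub (0.111) and Abce1 (0.129), against 0.371. Nearest to Hspa1b were Ankrd52 (0.193), Tnfrsf21 (0.202) and Timp2 (0.225), against 0.744, the widest variation of the 4. For Hsph1 they were Ngly1 (0.124), Zfp330 (0.131) and Stx2 (0.132), against 0.418. None of these 12 is another of the 10 heat shock protein genes, and all points share the library sets.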

How the data were processed

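The authors deposited a signal table of normalised counts, 1 column per library and 36118 Ensembl genes. The submitters' processing notes list FastQC 0.11.9, Salmon 0.12.0, DESeq2 1.34.0 and the build GRCm39 without their roles, and the values are not whole numbers. Gene names, transcript lengths and shared 31-base stretches came from a GRCm38 annotation, and 35825 genes matched a symbol. The 10 genes and all lists were chosen with earlier results of these data known.

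Values were analysed as log2(normalised count + 1), on which fold changes of low genes are understated. A mean of 10 or more was required, and the 17896 genes left were fitted with limma 3.58.1 in R 4.3.3 (5 group means, 10 residual degrees of freedom, variance trend, two-sided tests, Benjamini-Hochberg, threshold 0.05), after a check on simulated data. All 10 genes are named, with listed genes past the threshold or, failing that, the 2 with the smallest F-test p per list, and the 3 genes most like each of Hspa2, Hspa4l, Hspa1b and Hsph1.

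Whole reads could not be recovered for every gene. The commonest value among genes above 0 in 1 library only was taken as the worth of 1 read, and 86.7 to 94.5% of such values were whole multiples of it within 0.01. Numbers of reads are therefore approximate and cover counting only.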

Additional observations from a re-analysis of the deposited data

How the results depend on the processing

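The count of the 10 genes called stayed at 0 in each comparison of 21 refits (69 counts), which used a pseudocount of 10, no filter, rescaling to an equal 75th percentile, the replicate block, the library set as a term, both together, and each library left out in turn. Of 144 refitted fold changes 139 kept their direction and side of the threshold. Hspa2 in TSA was -0.18 with the library set as a term and replicate block, and -0.08 to 0.30 with 1 library left out. Hsp90aa1 in MTX was -0.05 to 0.43 with 1 library left out. Over all genes, leaving out 1 library gave 0 to 1 calls in MTX, HMS-I1 and AA, 0 to 992 in TSA (992 without TSA replicate 1) and 0 to 246 in the F-test (246 without TSA replicate 1). The refit without TSA replicate 1 keeps no histone-high TSA library and so mixes treatment with library set. With the replicate block 0 genes were called in each comparison, and in TSA 2 of the 10 genes, Hspb1 and Hsph1, had an unadjusted p under 0.05 (0.0157 and 0.0179), where 15.4% of all genes did. The labels do not say what a replicate number shares. Of 30 same-numbered pairs 26 had a correlation of deviations over 0.1, up to 0.756. The other 4 were those of Control replicate 2, -0.583 to -0.299, so the samples were not treated as paired, although 11 of 15 libraries matched their own number best. Where a library is left out, the remaining ones are assumed to vary like the other groups. Depth limits Hspa1a and Hspa1b most, with as few as 19 and 16 reads.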
